A study of Homo sapiens with 4 samples.

Results

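The regions described here are the open chromatin regions at 10 WNT response and LGR genes (LGR4, LGR5, AXIN2, RNF43, ZNRF3, LEF1, TCF7, SP5, NKD1 and DKK1) in human pancreatic progenitors. Peaks from 4 ATAC-seq peak lists were merged where they overlapped, and a merged region was taken when it overlapped the GENCODE release 44 body of a listed gene extended by 20 kb on each side. This rule gave 107 of the 164301 merged regions of the series. It used gene names and positions alone, and neither peak heights nor the condition in which a region was called.

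WNT ligands act through Frizzled and LRP receptors to stabilize β-catenin, which enters the nucleus and joins DNA-binding factors of the TCF/LEF family at target genes. LGR4 and LGR5 are receptors for R-spondins, which protect Frizzled from RNF43 and ZNRF3, the transmembrane ubiquitin ligases that remove it from the cell surface. Several targets of the pathway are themselves brakes on it, among them AXIN2 in the β-catenin destruction complex, NKD1, which binds Dishevelled, and the secreted LRP antagonist DKK1. In the developing pancreas, WNT signaling is known for its part in the growth of progenitors.

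The cells were pancreatic progenitors made from MEL1, an established line of human embryonic stem cells, which the methods name as MEL1 INS GFP/W, with GFP at one allele of the insulin gene. All were kept in EF6 medium, which holds B27, the growth factors EGF (at 50 ng/ml) and bFGF (at 10 ng/ml), and the TGFβ inhibitor 616452 (at 10 μM). One group received the solvent DMSO and the other 1 μM I-BET151, an inhibitor of the acetyl-lysine readers of the BET family, for 7 days. Each group had 2 libraries of 50000 cells. ATAC-seq inserts sequencing adapters into accessible DNA, so that a peak marks open chromatin and not transcription. All cells came from 1 line, and nothing in the labels or methods says that the libraries of a group were separate cultures, so that p-values measure the spread between these libraries only. A higher value in such bulk libraries can come from more cells with an open region or from more open chromatin per cell, and these cannot be told apart.

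The 4 lists were of unequal length and depth. They held 82568 and 38295 peaks for DMSO replicates 1 and 2, and 84995 and 111324 peaks for I-BET151 replicates 1 and 2. The libraries behind them were estimated at 38.7 and 36.6 M reads for DMSO, and at 12.5 and 16.0 M reads for I-BET151. Fold enrichment, the authors' ratio of summit pileup to local background with 1 added to each, was higher in both I-BET151 lists than in both DMSO lists in 90.1% of the 25627 regions called in all 4 lists. For this reason each peak was also given its percentile by fold enrichment within its own list, with 100 as the strongest peak. Peaks went down to 200 bp in each replicate 1 list, to 233 bp in DMSO replicate 2 and to 256 bp in I-BET151 replicate 2, and this lower limit is usually the read extension given to MACS2. The methods give a single MACS2 setting for ATAC-seq, with an extension of 200 bp. Whether the replicate 2 lists were made with another setting is not stated in the sources used here. Values within each replicate number are therefore given beside the pooled ones.

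Stretches of 4 regions that the results turn on are printed here from the hg38 sequence, and none of them holds exonic bases. They are the LGR5 promoter and an upstream ZNRF3 region, which fell in rank with I-BET151, the TCF7 promoter, which rose, and the AXIN2 promoter, which had a peak in both lists of I-BET151 and in 0 of the DMSO lists. Capitals mark a match to CTTTGAT, the core letters bound by TCF/LEF factors. The windows lie at chr12:71439060-71439260 (plus strand), chr22:28865080-28865280 (plus strand), chr5:134114481-134114680 (plus strand) and chr17:65561649-65561848 (minus strand), in that order of genes.
LGR5 promoter: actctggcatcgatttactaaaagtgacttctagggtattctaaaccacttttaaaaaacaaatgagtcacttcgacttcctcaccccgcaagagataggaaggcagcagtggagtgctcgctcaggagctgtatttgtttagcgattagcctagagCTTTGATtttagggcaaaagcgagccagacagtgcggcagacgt
ZNRF3 upstream region: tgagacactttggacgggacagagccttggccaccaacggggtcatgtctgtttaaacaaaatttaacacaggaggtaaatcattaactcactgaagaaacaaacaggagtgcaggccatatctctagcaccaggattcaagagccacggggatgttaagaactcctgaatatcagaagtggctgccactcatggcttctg
TCF7 promoter: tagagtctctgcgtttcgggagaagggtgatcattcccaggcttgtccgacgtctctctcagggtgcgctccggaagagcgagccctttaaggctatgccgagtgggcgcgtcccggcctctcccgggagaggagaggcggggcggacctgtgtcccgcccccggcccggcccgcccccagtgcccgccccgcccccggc
AXIN2 promoter: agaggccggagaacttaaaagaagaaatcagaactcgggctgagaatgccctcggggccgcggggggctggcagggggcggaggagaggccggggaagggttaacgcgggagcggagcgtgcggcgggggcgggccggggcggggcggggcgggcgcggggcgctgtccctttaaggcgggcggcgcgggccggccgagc

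The windows differed in base composition. The LGR5 and ZNRF3 windows held 45.8% and 46.8% G and C with 8 and 3 CpG sites. The TCF7 and AXIN2 windows held 71.5% and 75.5% with 21 and 27 CpG sites, and of the 4 windows only that of LGR5 contains the motif.

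Across the 107 regions, more were called with I-BET151 alone than with DMSO alone. A region with a peak in both lists of I-BET151 and no peak with DMSO is termed gained, and the reverse lost. The 10 genes had 23 gained regions (21.5%), against 17.0% of all merged regions, and 2 lost regions (1.87%), against 2.37%. All 4 lists called 19 regions (17.8%, against 15.6% of all). In all, 61 regions were called in 1 or 2 I-BET151 lists and with no DMSO library, where 49.4% of all merged regions were, and 15 in 1 or 2 DMSO lists and with no I-BET151 library, where 21.8% were. The gained share was thus a little above that of the genome and the lost share a little below it, and no test was made of either difference. LEF1 alone had 8 of the 23 gained regions among its 19 regions. The higher gained share can therefore not be read as a trait of the 10 genes together. A further 12 regions were called in both conditions but in 3 or fewer lists. Single lists gave the rest, with 34 regions in I-BET151 replicate 2 (22.3% of all merged regions were called there alone), 13 in DMSO replicate 1, 4 in I-BET151 replicate 1 and 0 in DMSO replicate 2.

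The counts differed between the replicate numbers and with the libraries used. Within the replicate 1 lists 27 regions were called with I-BET151 only and 17 with DMSO only, and within the replicate 2 lists 67 and 2. Without I-BET151 replicate 1 the gained regions numbered 58, and without DMSO replicate 2 the lost regions numbered 15, where a single list of that condition then had to call the region. Each list was also limited to as many peaks as the shortest list holds, taken by the smallest peak p-value and not by fold enrichment. The counts were then 3 gained and 2 lost regions, which need not be regions counted in the full lists. The replicate 2 lists held 38295 peaks with DMSO and 111324 with I-BET151. Shares of all merged regions were not counted for these settings, so the counts cannot be read as particular to the 10 genes.

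**Figure D1:**
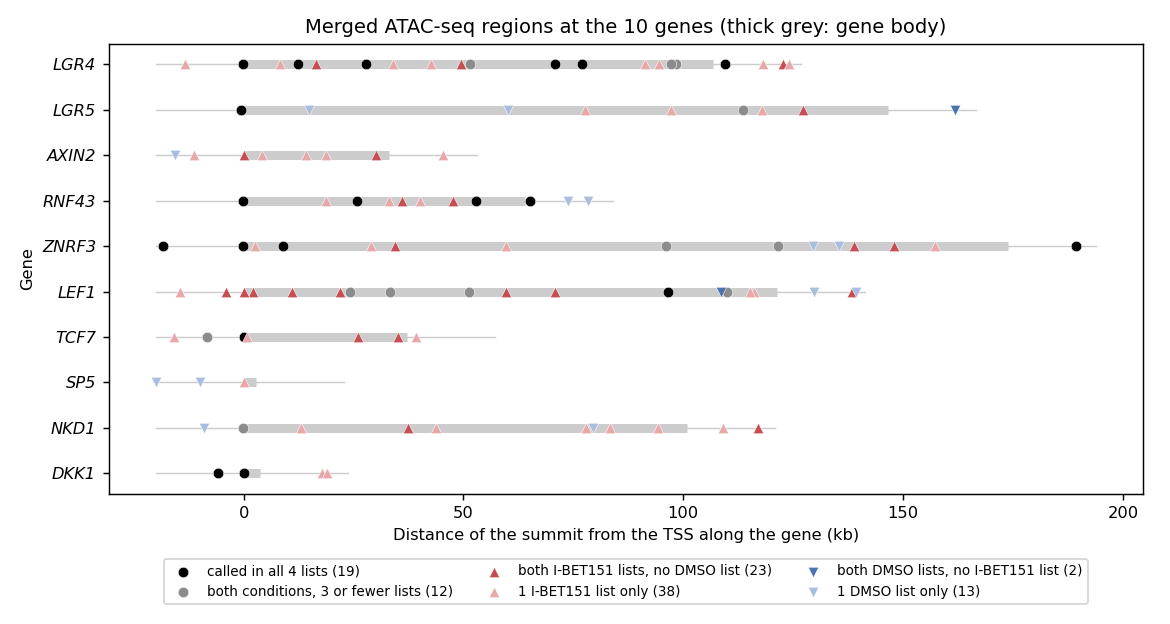
Each symbol is 1 merged region, placed by the distance in kb of its summit from the transcription start site (TSS) along the gene, with 1 row for each of the 10 genes and the gene body in grey. The 23 gained regions (dark red triangles) lie at 8 of the 10 genes, with 8 of them at LEF1, and the 2 lost regions (dark blue) lie at LGR5 and LEF1.

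By position, 65 of the regions had their summit in an intron, 6 in the untranslated part of an exon, 17 upstream and 19 downstream of the gene. For 60 of the 107 the listed gene was also the nearest protein-coding TSS, so that the others may belong to a neighbor. The regions had a median width of 451 bp, against 405 bp for all merged regions, and 14 (13.1%, against 8.53% of all) had a summit within 1 kb of a protein-coding TSS. Each of the 10 genes had a region at its own promoter, though that of SP5 was called in 1 list and those of AXIN2 and LEF1 in no DMSO list. The share of all protein-coding genes with a promoter region was not counted.

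Among regions called in all 4 lists, a rank shift was tested with limma on normal scores of the rank among the 25627 shared regions, with Benjamini-Hochberg adjustment over all of them. A positive shift means a higher rank with I-BET151. At the 19 shared regions of the 10 genes, 1 rose, 2 fell and 16 did not pass an adjusted p of 0.05, where 3.41% of all shared regions rose and 1.96% fell. An unadjusted p under 0.05 was reached by 6 of the 19 and by 24.9% of all shared regions. The percentile was higher in both I-BET151 lists than in both DMSO lists at 6 of the 19 regions (40.8% of all shared regions) and lower at 4 (10.3% of all). Fold enrichment itself was higher in both I-BET151 lists at 17 of the 19 and lower in both at 0 (0.242% of all shared regions), and its median log2 change of 0.84 lay close to the 0.83 of all shared regions.

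**Figure D2:**
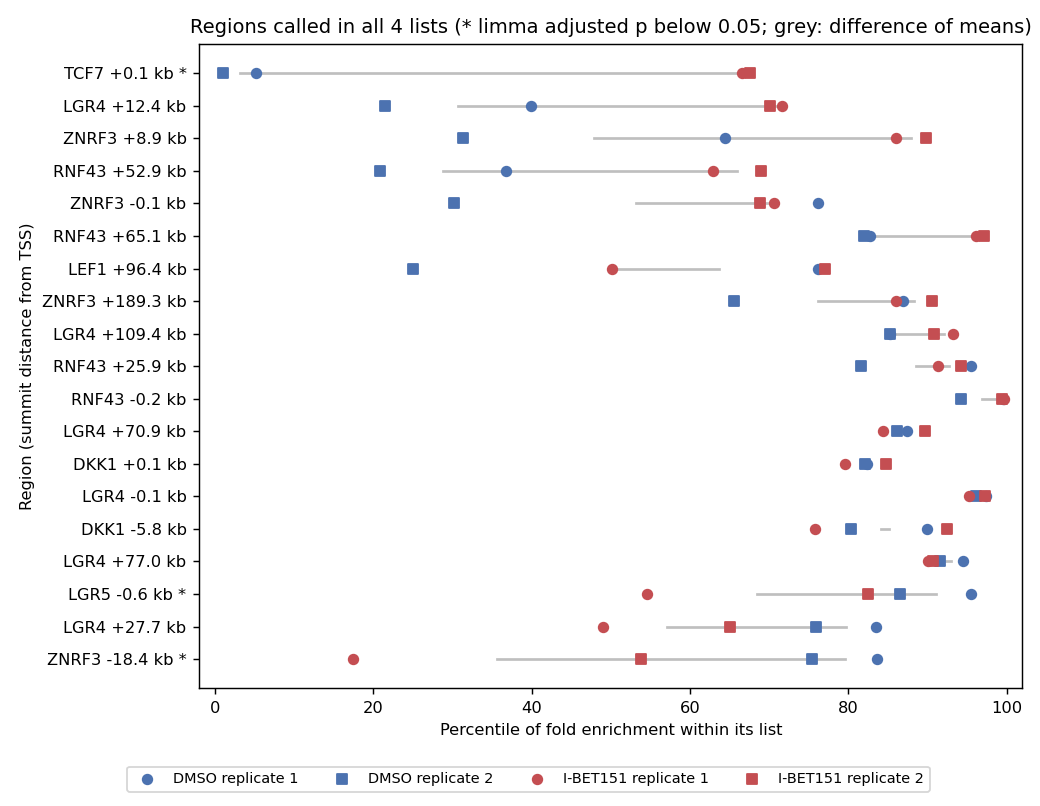
Percentile of fold enrichment within its list (horizontal axis, 100 is the strongest peak) for the 19 regions called in all 4 lists, with DMSO libraries in blue, I-BET151 libraries in red and a grey line between the 2 group means. The TCF7 promoter, at the top, goes from percentiles of 5.17 and 1.04 to 66.5 and 67.7, while the ZNRF3 upstream and LGR5 promoter regions lie lower in both I-BET151 lists.

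Of the R-spondin receptors, LGR4 was open at its promoter in every library and the LGR5 promoter fell in rank with I-BET151. The LGR4 promoter region (chr11:27472079-27473304, summit at -147 bp from the TSS) had fold enrichments of 8.39 and 8.75 with DMSO and 12.3 and 14.6 with I-BET151. Its percentiles were 97.5, 96.2, 95.2 and 97.3 in the same order. The fold values of the groups did not overlap whereas the percentiles did, and the rank shift of -0.36 ± 0.38 (SE) did not pass (limma adjusted p = 0.590).

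The LGR5 promoter region (chr12:71438725-71440414, summit at -638 bp) had fold enrichments of 7.52 and 6.39 with DMSO and 5.73 and 9.67 with I-BET151. These overlapped. Its percentiles were 95.5 and 86.6 with DMSO and 54.5 and 82.5 with I-BET151, so that both I-BET151 libraries ranked below both DMSO libraries. The rank fell, with a shift of -1.47 ± 0.40 (limma adjusted p = 0.0452). The call was lost without DMSO replicate 1 (-1.36, adjusted p = 0.279), DMSO replicate 2 (-1.51, 0.185) or I-BET151 replicate 1 (-1.03, 0.160), and when peaks were ranked by −log10 p (-1.05, 0.177). On the unranked log2 fold enrichment the difference was 0.10 with I-BET151 above DMSO (limma adjusted p = 0.731), which turns the direction. The depth-scaled summit pileup (reads at the summit divided by the library's M reads) was higher with I-BET151 by 0.98 and 2.04 (log2) in replicate pairs 1 and 2, less than the medians of 1.57 and 2.25 over all shared regions. On that scale the region was called in the opposite direction, with a difference of 1.51 (limma adjusted p = 0.00086). Of all 25627 shared regions, 24614 were called upward there.

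The LGR4 window held 20 regions, with 6 in all 4 lists, 3 gained and 0 lost. Inside intron 1, the region 12393 bp from the TSS went from percentiles of 39.9 and 21.5 to 71.7 and 70.1. Also in intron 1, the region at 27748 bp went from 83.5 and 75.9 to 49.0 and 65.1. The percentiles overlapped at neither region and differed in opposite directions, and neither shift passed (limma adjusted p = 0.265 and 0.0725). On fold enrichment both regions were higher with I-BET151, with 3.62 and 3.28 against 7.27 and 7.94 at the first, and 5.37 and 5.30 against 5.47 and 7.37 at the second. The LGR5 window held 9 regions, with the promoter the only one in all 4 lists. Its 1 gained region lies in intron 11 (fold enrichments of 4.96 and 4.37 with I-BET151). Its 1 lost region (chr12:71601480-71601857) lies downstream of the gene, nearest to the ZFC3H1 start, with fold enrichments of 3.88 and 3.37 with DMSO. In intron 2, a region called in I-BET151 replicate 2 alone had a fold enrichment of 11.1, above that list's value of 9.67 at the promoter. It was called in none of the other 3 lists.

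The genes of both ubiquitin ligases were open at their promoters in all 4 libraries, and a distal region upstream of ZNRF3 fell in rank. The RNF43 promoter region (chr17:58417247-58418269, summit at -220 bp) had fold enrichments of 10.9 and 8.0 with DMSO and 16.6 and 17.6 with I-BET151, the highest promoter values among the 10 genes in all lists except DMSO replicate 2. There the LGR4 promoter stood above it. Its percentiles were 99.6, 94.3, 99.6 and 99.4. It thus ranked near the top of every list, and its shift of 0.33 ± 0.40 did not pass (limma adjusted p = 0.650). The annotated start nearest to this summit belongs to ENSG00000285897, so that the region may serve either start.

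The ZNRF3 promoter region (chr22:28882691-28883757, summit at -63 bp) had fold enrichments of 4.82 and 3.50 with DMSO and 7.14 and 7.77 with I-BET151. Its percentiles were 76.1, 30.2, 70.6 and 68.9. The spread between the DMSO libraries exceeded the difference between the groups (shift 0.05 ± 0.40, limma adjusted p = 0.961).

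The region upstream of ZNRF3 at -18392 bp (chr22:28864670-28865448) had fold enrichments of 5.38 and 5.29 with DMSO and 4.16 and 6.36 with I-BET151. Its percentiles were 83.6 and 75.5 with DMSO and 17.4 and 53.8 with I-BET151, with no overlap. Its rank fell, with a shift of -1.79 ± 0.39 (limma adjusted p = 0.0209). The call was lost without DMSO replicate 1 (-1.92, adjusted p = 0.0963), DMSO replicate 2 (-1.68, 0.122) or I-BET151 replicate 1 (-1.36, 0.0666), and when peaks were ranked by −log10 p (-1.93, 0.0673). It was also lost on unranked log2 fold enrichment (-0.05, adjusted p = 0.837) and on depth-scaled pileup, where the direction turned (0.31, 0.482), and the region could not be fitted at a −log10 p of at least 10 or with equal numbers of peaks. Depth-scaled pileup differed by -0.08 and 0.71 (log2) in the 2 replicate pairs, against medians of 1.57 and 2.25 over all shared regions. Within the gene body, the intron 1 region 8900 bp from the TSS went the other way, from percentiles of 64.4 and 31.4 to 86.0 and 89.8, without passing (shift 1.08 ± 0.38, limma adjusted p = 0.0982).

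The RNF43 window held 11 regions, 4 of them called in all 4 lists and 2 gained, and the ZNRF3 window held 15, with 4 and 3. Neither window had a lost region. The ZNRF3 gained region with the highest values lies in intron 2 (chr22:29030615-29031871) and had fold enrichments of 6.07 and 6.16 with I-BET151. The strongest region called in all 4 lists in the ZNRF3 window is the promoter of KREMEN1, a DKK receptor, at the downstream edge (fold enrichments of 5.69 and 4.69 with DMSO and 9.46 and 11.5 with I-BET151, limma adjusted p = 0.799). In the RNF43 window, the region 65144 bp downstream of the RNF43 start is nearest to the SUPT4H1 start. Its percentiles were 82.7 and 82.0 with DMSO and 96.2 and 97.2 with I-BET151, and its shift of 0.83 ± 0.39 did not pass (limma adjusted p = 0.197).

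The feedback inhibitors AXIN2 and NKD1 had promoter peaks mainly in the I-BET151 lists, and DKK1 had one in every list. The AXIN2 promoter region (chr17:65561451-65562114, over the untranslated part of exon 1, summit 59 bp downstream of the TSS) was called in neither DMSO list. With I-BET151 it had fold enrichments of 5.16 and 4.86, percentiles of 41.6 and 31.2, and summit pileups of 18 and 30 reads. Gains of this kind were found at 10.8% of the 14011 regions within 1 kb of a protein-coding TSS, and 66.0% of those were called in all 4 lists. AXIN2 had 8 regions, of which 2 were gained and 5 were called in I-BET151 replicate 2 alone. The second gained region, in intron 10 (chr17:65531157-65532266), had fold enrichments of 6.52 and 6.68, higher than those at the promoter.

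The NKD1 promoter region (chr16:50547468-50548756, summit at -120 bp) was called in DMSO replicate 1 with a fold enrichment of 3.08 at percentile 13.5, and not in DMSO replicate 2. With I-BET151 it had 6.40 and 5.80, at percentiles of 63.1 and 45.9. The single DMSO value lay below both I-BET151 values on either scale, and with a library missing the region was not in the test. NKD1 had 11 regions, with 2 gained (in intron 3 and downstream), 5 in I-BET151 replicate 2 alone and 0 in all 4 lists.

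The DKK1 promoter region (chr10:52313801-52314972, over the untranslated part of exon 1) had fold enrichments of 5.24 and 5.83 with DMSO and 8.28 and 10.1 with I-BET151. Its percentiles of 82.4, 82.1, 79.5 and 84.8 showed no separation of the groups (shift -0.35 ± 0.39, limma adjusted p = 0.610). The other shared DKK1 region, at -5789 bp, had percentiles of 89.95, 80.4, 75.8 and 92.5, and likewise overlapped. DKK1 had 4 regions, and the remaining 2 were called in I-BET151 replicate 2 alone.

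**Figure D3:**
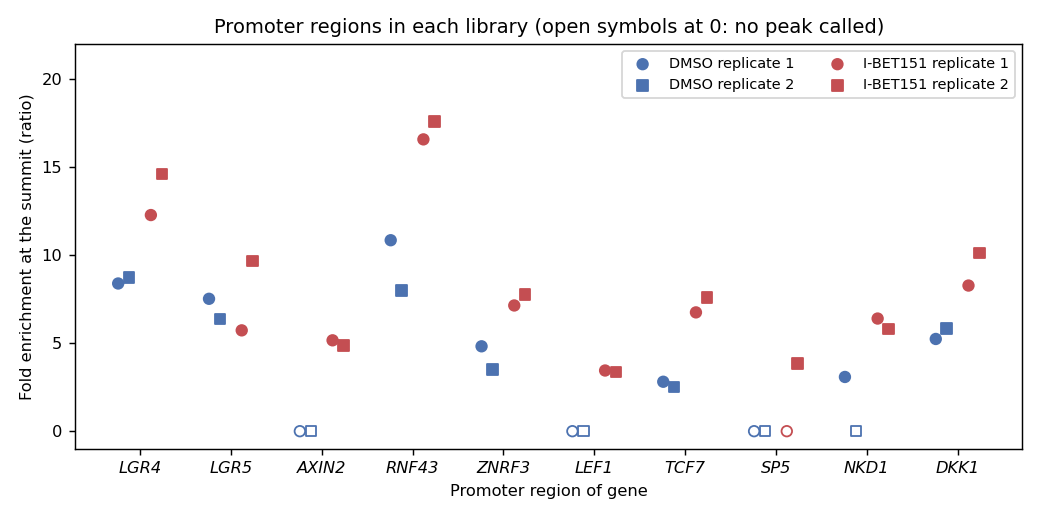
Fold enrichment at the summit (vertical axis, a ratio) of the promoter region of each of the 10 genes in the 4 libraries, with DMSO in blue and I-BET151 in red. Open symbols at 0 mark a list without a peak. AXIN2 and LEF1 have no peak in either DMSO list, SP5 has a peak in I-BET151 replicate 2 alone, and LGR5 is the one gene called in all 4 lists whose groups overlap.

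Of the transcription factors, SP5, a target that acts as a repressor, had few peaks in any list. TCF7 and LEF1 carry β-catenin to its targets. TCF7 had 5 regions called with I-BET151 alone and 0 with DMSO alone, and LEF1 had 11 and 3. The former outnumbered the latter at every listed gene except SP5. Of all merged regions, 49.4% were called with I-BET151 alone and 21.8% with DMSO alone. The TCF7 promoter region (chr5:134114237-134114979, over the untranslated part of exon 1, summit 51 bp downstream of the TSS) had fold enrichments of 2.81 and 2.52 with DMSO and 6.75 and 7.61 with I-BET151. Its percentiles were 5.17 and 1.04 with DMSO and 66.5 and 67.7 with I-BET151. The DMSO values were thus among the weakest peaks of their lists, and the groups were well apart. The rank rose, with a shift of 1.83 ± 0.38 (limma adjusted p = 0.0183), the only rise called among the 19 shared regions.

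The TCF7 shift stayed positive in all alternatives in which it could be computed. It could not be fitted with peaks held to a −log10 p of at least 5, since the DMSO replicate 2 peak had 4.83, nor at 10 or with equal numbers of peaks. Its call was lost without DMSO replicate 1 (1.89, adjusted p = 0.0975) or DMSO replicate 2 (1.60, 0.152), when peaks were ranked by −log10 p (1.54, 0.106), and on log2 fold enrichment centred on each list's median (0.52, 0.0964). Depth-scaled pileup differed by 1.75 and 2.35 (log2) in the 2 replicate pairs, close to the medians of 1.57 and 2.25 over all shared regions. TCF7 had 7 regions, none of them called with DMSO alone. The gained ones lie in intron 5 (chr5:134140522-134141118, fold enrichments of 5.73 and 6.62) and downstream of the gene (5.26 and 5.82).

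LEF1 had 19 regions, and its 8 gained regions were the most of any of the 10 genes. Its promoter region (chr4:108168607-108169023, over the untranslated part of exon 1, summit 94 bp downstream of the TSS) was called in neither DMSO list. With I-BET151 it had fold enrichments of 3.45 and 3.36 at percentiles of 2.33 and 5.28, from 13 and 18 reads at the summit. This promoter peak was thus near the weak end of both I-BET151 lists. Higher gained regions lay in intron 3, at chr4:108108886-108109547 (6.21 and 5.78) and chr4:108146806-108147217 (6.0 and 7.25). A further region in intron 3, at 33179 bp from the TSS, was called in DMSO replicate 1 at 3.54 and with I-BET151 at 7.09 and 10.0.

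The single LEF1 region called in all 4 lists lies in intron 8 (chr4:108072237-108072762). It had fold enrichments of 4.82 and 3.37 with DMSO and 5.56 and 8.80 with I-BET151, percentiles of 76.1, 25.1, 50.2 and 77.1, and overlapping groups (shift -0.01 ± 0.42, limma adjusted p = 0.991). The lost LEF1 region in intron 11 (chr4:108060248-108060553) had fold enrichments of 3.61 and 2.76 with DMSO. Once peaks were held to a −log10 p of at least 10, 0 lost regions were counted at the 10 genes.

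SP5 had 3 regions, and none was called in more than 1 list. Its promoter region (chr2:170715387-170715847) was called in I-BET151 replicate 2 alone, with a fold enrichment of 3.84 at percentile 11.7 and 13 reads at the summit. Both upstream regions were called in DMSO replicate 1 alone, at 3.31 and 3.52.

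A locus score gathers all regions of a gene, as the mean within-list percentile with 0 for a region that the list does not call. It was higher with I-BET151 for 9 of the 10 genes, and the groups did not overlap for 7, where 51.3% of the 18871 genes with a region had higher scores in both I-BET151 lists and 2.96% lower ones. Over the 10 genes the median difference was 15.0, against 10.7 over all genes, of which 82.8% were higher. With 2 libraries against 2 an exact permutation test cannot give a two-sided p below 0.33, and the scores are given as a description. The 61 regions called with I-BET151 alone enter the DMSO scores as 0, and the 15 called with DMSO alone enter the I-BET151 scores as 0. The direction of a score thus depends on how many regions each list calls, and not on peak strength alone.

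TCF7 and LEF1 had the largest differences. The TCF7 score was 1.42 and 0.148 in the DMSO libraries and 23.9 and 38.4 in the I-BET151 libraries, with means of 0.785 ± 0.90 and 31.2 ± 10.3 (SD, n = 2). The LEF1 score was 19.5 and 1.56 with DMSO and 30.6 and 39.9 with I-BET151. NKD1 followed, with 2.09 and 0 against 16.1 and 27.1, and then ZNRF3, with 30.0 and 13.5 against 36.5 and 45.7. Neighbors in this order differed by less than the largest SD within a group of these genes, 12.7 for LEF1 with DMSO.

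AXIN2 had scores of 5.32 and 0 with DMSO and 13.2 and 27.1 with I-BET151. RNF43 had 33.5 and 25.3 against 38.8 and 45.1, and LGR4 had 34.1 and 22.8 against 36.4 and 43.9. In these 3 genes, as in the 4 above, both I-BET151 libraries were higher than both DMSO libraries.

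The scores of LGR5, DKK1 and SP5 overlapped between the groups. LGR5 had 27.4 and 12.8 with DMSO and 14.9 and 30.8 with I-BET151. DKK1 had 43.1 and 40.6 against 38.8 and 53.4, and SP5 had 18.7 and 0 against 0 and 3.90. Within replicate pair 1 these 3 genes were lower with I-BET151 (differences of -12.5 for LGR5, -4.25 for DKK1 and -18.7 for SP5), and within pair 2 they were higher (18.0, 12.8 and 3.90).

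The mean score over the 10 genes was 21.5 and 11.7 with DMSO and 24.9 and 35.5 with I-BET151. Its difference of 13.6 was 3.41 within replicate pair 1 and 23.9 within pair 2, was 21.2 without DMSO replicate 1, and was 1.62 when all lists were limited to equal numbers of peaks. Under equal numbers the differences of LGR4, LGR5 and DKK1 were negative (-6.64, -11.4 and -16.9), that of ZNRF3 was near 0 (0.249), and those of LEF1, TCF7 and NKD1 were 19.7, 11.9 and 9.04. The part of list length in the higher scores was not tested otherwise.

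**Figure D4:**
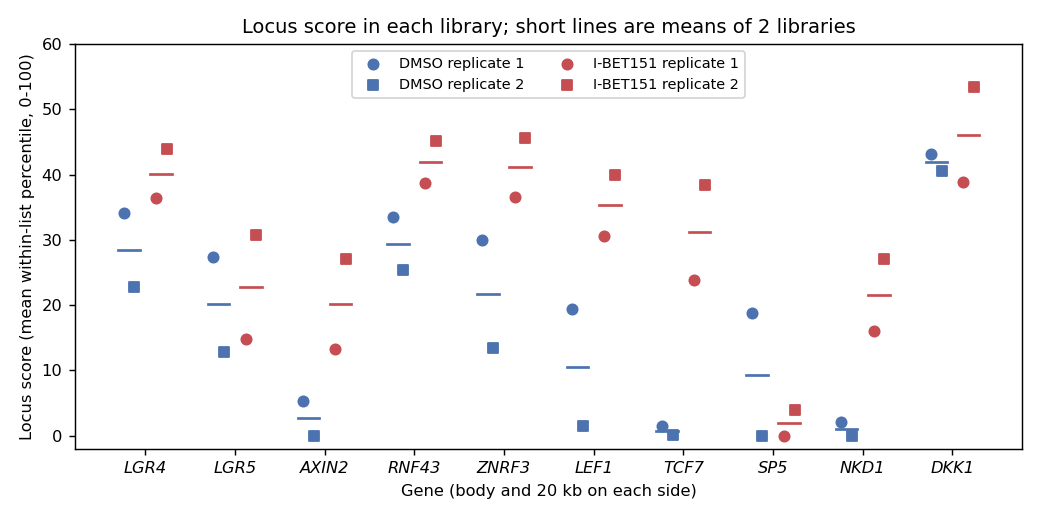
Locus score (vertical axis, mean within-list percentile from 0 to 100) of the 10 genes in each library, with DMSO in blue, I-BET151 in red, circles for replicate 1, squares for replicate 2 and short lines for the mean of each group. The groups are apart for LGR4, AXIN2, RNF43, ZNRF3, LEF1, TCF7 and NKD1 and overlap for LGR5, SP5 and DKK1, and I-BET151 replicate 2 is the highest library for 9 genes.

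The TCF/LEF letters were found at the promoters of LGR5, AXIN2, TCF7 and NKD1, and the shares are given without a test. CTTTGAT was searched on both strands within 100 bp of the highest summit of each region, and was found in 8 of the 107 regions (7.48%), against 2.94% of all merged regions. At the promoter regions of the 10 genes it was found in 4 (40.0%), against 0.949% of the 14011 regions within 1 kb of a protein-coding TSS. The match centers lie at -578 bp from the TSS for LGR5, 77 bp for AXIN2, 19 bp for TCF7 and -81 bp for NKD1. The other 97 regions held it in 4 cases (4.12%), near the 3.13% of all other merged regions. With 250 bp on each side, a window added after seeing the data, the same count of 4 promoters stood against 2.73% of promoter regions. The second form, CTTTGTT, was found in 5 of the 107 regions (4.67%, against 5.66%) and in 0 of the 10 promoters (1.97% of promoter regions). These are matches of letters, and no binding was measured.

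The 29 bases around 4 of the matches are shown because 2 of them lie in the first exon, outside the windows above, and 2 lie in introns. They are at chr17:65561557-65561585 (minus strand), chr5:134114686-134114714 (plus strand), chr17:58391693-58391721 (minus strand) and chr4:108117649-108117677 (minus strand) of hg38, and capitals again mark the motif, which the LEF1 line carries as its reverse complement.
AXIN2 exon 1: agccggctgcgCTTTGATaaggtcctggc
TCF7 exon 1: gccggcggcgcCTTTGATgttccgacccg
RNF43 intron 2: atggaagggctCTTTGATaatatctgacg
LEF1 intron 3: gaggtcgtttgATCAAAGccctgggaaag

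The 4 promoters with the motif did not move alike in calls and ranks. TCF7 rose in rank, AXIN2 was gained, NKD1 was called in 3 lists with its weakest value with DMSO, and LGR5 fell in rank. On other scales TCF7 and LGR5 did not differ in direction. Both were higher with I-BET151 on unranked log2 fold enrichment (1.43 and 0.10) and on depth-scaled pileup (2.05 and 1.51). The RNF43 intron 2 region with the motif was called in all 4 lists, with percentiles of 95.6, 81.6, 91.3 and 94.2, and did not pass (limma adjusted p = 0.864). The LEF1 intron 3 region with the motif had fold enrichments of 4.24 in DMSO replicate 1 and of 7.82 and 9.23 with I-BET151, and was not called in DMSO replicate 2.

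Among 38 other WNT pathway genes (ligand export, receptors, destruction complex, secreted inhibitors and targets), 33 had a promoter region. Of these 33, 17 were called in all 4 lists, against 66.0% of the 14011 regions with a summit within 1 kb of a protein-coding TSS. KREMEN1 is among the 17, and its promoter region is also counted in the ZNRF3 window above. Of these 17, 0 rose and 1 fell by limma (3.41% and 1.96% of all shared regions), with 5 at an unadjusted p under 0.05 (24.9% of all shared regions), and the median shift was -0.08. The one that fell was LRP6, the WNT co-receptor. It had percentiles of 93.4 and 91.2 with DMSO and 62.4 and 80.2 with I-BET151, and fold enrichments of 6.91 and 7.18 against 6.31 and 9.29. Its percentiles did not overlap while its fold values did, and the shift was -1.43 ± 0.39 (limma adjusted p = 0.0443). The call was lost on ranks by −log10 p, on unranked log2 fold enrichment, on depth-scaled pileup, and without either DMSO library or I-BET151 replicate 1.

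Gained promoters were found at 5 of the 33 genes with a promoter region, DVL2, RSPO2, SFRP1, CCND1 and SP8, and lost ones at 0. Of the 14011 regions with a summit within 1 kb of a protein-coding TSS, 10.8% were gained. RSPO2, a ligand of the LGR receptors, had fold enrichments of 4.97 and 5.18 with I-BET151, and SFRP1, a secreted WNT antagonist, had 6.34 and 4.43. CCND1, the cyclin gene often named as a WNT target, had 3.19 and 3.23, at the weak end of both lists. No promoter peak was called in any list at LGR6, RSPO1, RSPO3, SFRP2 and NOTUM.

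The label of the cells was compared with promoter peaks at marker genes. Of 10 pancreatic progenitor markers, 8 and 7 had a promoter peak in the DMSO lists and 9 in each I-BET151 list. PTF1A had none, and PDX1, a defining marker, had a peak in the I-BET151 lists only. The pluripotency genes POU5F1 and NANOG had none in any list, and LIN28B had one in all. Mesenchymal markers had promoter peaks at 3 of 4 genes in each DMSO list and at 4 of 4 in each I-BET151 list, endocrine markers at 1 and 0 of 5 against 2 and 1, acinar and liver markers at 1 of 3 each in all lists, and the blood or endothelial markers PTPRC and PECAM1 at 1 and 0 of 2 against 0 and 0. An open promoter does not show that a gene is expressed, and the part of other cell types in the values at the WNT genes was not tested.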

How the data were processed

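ATAC-seq of 4 libraries was used, 2 with DMSO and 2 with I-BET151, grouped by sample labels. Per the methods, the authors used Bowtie2 (v2.2.5) on hg38, took out duplicate and mitochondrial reads, and called peaks by MACS2 (v2.1.2). There is 1 deposited list for each library. For every peak the deposited lists give a display score (not used), a fold enrichment (ratio) at the summit, and −log10 of the p-value and q-value. The lists reach below the p-value threshold of the methods, which was tried as an alternative (−log10 p of at least 5).

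Peaks on the autosomes and sex chromosomes were merged at an overlap of 1 bp and placed on GENCODE release 44 with the hg38 sequence. Summit pileup was solved from fold enrichment and p, and fitted 100% of peaks. Reads per library were estimated from the lowest background among its peaks, assuming the MACS2 preset for the human genome size and a read extension equal to the list's shortest peak. Shared regions were tested with limma 3.58.1 in R 4.3.3 (lmFit, eBayes, two-sided, Benjamini-Hochberg over 25627 regions), after a trial on simulated data. The members and lists were chosen with earlier results of these data known. A gene's promoter region was the region over its TSS, or the nearest within 1 kb of it. The 14011 promoter regions set beside these were instead those with a summit within 1 kb of a protein-coding TSS. Named regions were each gene's promoter region and its strongest region in all 4 lists. Also named were regions past an adjusted p of 0.05, and the 5 gained and 5 lost regions with the highest fold enrichment in the weaker list. Other regions were named after their values were seen. Alternatives were stricter peak thresholds, equal list lengths, another merging overlap, other windows and scales, replicate blocks and leaving out each library. Counting error of the summit reads is part of the spread between libraries and was not estimated apart from it.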

Additional observations from a re-analysis of the deposited data

How the results depend on the processing

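Of the regions at the 10 genes, 23 were gained and 2 were lost. With equal numbers of peaks 3 were gained, and within replicate pair 2 the number was 67. Shares over all merged regions were not counted for these alternatives. Leaving out 1 library gave 23 to 58 gained and 2 to 15 lost regions. Lost regions numbered 1 at a −log10 p of at least 5, 0 at a −log10 p of at least 10, 1 with 5 kb windows and 17 within replicate pair 1. Rank shifts called were 1 up and 2 down. Upward calls were 0 at a −log10 p of at least 5, 0 at 10, 0 with equal numbers, 0 on ranks by −log10 p, 0 on centred log2 fold enrichment, 16 on unranked log2 fold enrichment, 18 on depth-scaled pileup, and 0 to 1 without 1 library. Downward calls were 1 at a −log10 p of at least 10, 1 with equal numbers, 1 with 5 kb windows, 0 on ranks by −log10 p, on unranked log2 fold enrichment and on pileup, and 0 to 2 without 1 library. At the promoters of the 38 other genes, upward calls numbered 0, but 1 with equal numbers, 12 on unranked log2 fold enrichment and 16 on pileup. Of all 25627 shared regions, 19604 were called upward on unranked log2 fold enrichment and 24614 on pileup. Upward calls on these 2 scales were thus found at most shared regions and are not particular to WNT genes. Downward calls there numbered 1, but 2 at a −log10 p of at least 10, 2 with equal numbers, 2 on centred log2 fold enrichment, 0 on ranks by −log10 p, on unranked log2 fold enrichment and on pileup, and 0 to 1 without 1 library. The difference in mean locus score, 13.6, was 1.62 with equal numbers, 3.41 within pair 1, 23.9 within pair 2, and 8.72 to 21.2 without 1 library.

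Unranked log2 fold enrichment turned the direction at LGR4 (promoter, 0.65), LGR5 (promoter, 0.10), LEF1 (intron 8, 0.80) and DKK1 (upstream 0.71, promoter 0.73), and pileup turned it at the same regions (2.23, 1.51, 1.37, 1.9 and 2.28) and upstream of ZNRF3 (0.31). On unranked log2 fold enrichment all of these but the LGR5 promoter and the ZNRF3 region passed (limma adjusted p from 0.0141 to 0.0403). On pileup all but the ZNRF3 region passed (limma adjusted p from 1.63e-06 to 0.00244). Ranks by −log10 p gave 0.11 at the LGR4 promoter, -0.12 at the KREMEN1 promoter, 0.0136 in LEF1 intron 8 and 0.11 at the DKK1 promoter. Shifts near 0 also turned sign at the RNF43 promoter (-0.031 centred, and -0.0717 to 0.72 without 1 library), the ZNRF3 promoter (-0.0366 with equal numbers, -0.0494 centred, and -0.373 to 0.379 without 1 library), in LEF1 intron 8 (0.0236 at a −log10 p of at least 5, and -0.504 to 0.388 without 1 library) and upstream of DKK1 (-0.723 to 0.0541 without 1 library). The causes were not tested. Over all shared regions 63.5% of the calls were upward, 22.9% on ranks by −log10 p, 35.0% centred, and 99.9% on either unranked scale. With the replicate block the calls at the 10 genes stayed at 1 up and 2 down and those at the other genes at 0 and 1. Deviations of same-numbered libraries correlated at -0.143, so a crossed replicate block was added after seeing the data, which called 1 up and 3 down at the 10 genes and 1 up and 2 down at the others.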
